A study of Mus musculus with 7 samples.

Results

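Runx1, Runx2 and Runx3 encode the RUNX family of transcription factors. Their accessible chromatin regions were followed through untreated pancreatic epithelium and days 1, 7 and 28 after caerulein. They are 3 of 21631 protein-coding genes and were selected on the gained and lasting regions that these same peak lists had shown near Runx1 and Runx2, so every count of their regions is a description and not a test. A region belonged to a gene when the annotated span of that gene lay nearest to the region's summit and within 50 kb of it. By this rule the family held 76 of 140286 regions in the untreated list, 134 of 164684 at day 1, 119 of 145337 at day 7 and 80 of 130149 at day 28. Overlapping regions of the 4 lists joined into 165 family regions, of 223972 in all. Runx1 held 71 of the joined regions, Runx2 62 and Runx3 32.

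The study profiled purified epithelial cells from the pancreas of C57BL/6J wild-type mice by ATAC-seq, an assay that marks open DNA by the insertion of sequencing adapters with Tn5 transposase. Mice were left untreated or received caerulein, a cholecystokinin analogue that causes a transient acute pancreatitis, and were sampled 1, 7 and 28 days later. There was 1 library, and 1 peak list made from it, for each of the 4 groups; no value has a replicate check, and no p-value was computed. The other 3 of the 7 samples, from DCLK1-positive cells, were not analysed here.

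RUNX proteins share the Runt domain, which binds DNA at sites of the form TGTGGT or TGCGGT, and they bind more firmly when paired with the partner protein encoded by Cbfb. Runx1 is required for blood stem cell formation, Runx2 for bone formation, and Runx3 for cytotoxic T cell and proprioceptive neuron development. Each mammalian RUNX gene is known to be transcribed from a distal and a proximal promoter, and Runx3 has been linked to metastasis in mouse models of pancreatic cancer.

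In the promoter annotation, the most upstream starts of the 3 genes carry the sequence they share, and their accessibility differed between the lists. They are printed here for that reason, 250 bases before to 50 bases after the start, on the coding strand, from RefSeq for GRCm38.p6. Capitals mark matches to the RUNX sites TGTGGT and TGCGGT, which read ACCACA and ACCGCA on the other strand.
Runx1 distal start, chr16:92826025-92826324, minus strand: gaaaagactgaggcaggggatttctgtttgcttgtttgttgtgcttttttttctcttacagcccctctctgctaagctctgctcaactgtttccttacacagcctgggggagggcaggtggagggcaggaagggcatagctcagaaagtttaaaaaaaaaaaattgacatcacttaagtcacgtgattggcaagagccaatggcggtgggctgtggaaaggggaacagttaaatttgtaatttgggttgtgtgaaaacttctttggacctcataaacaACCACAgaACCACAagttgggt
Runx2 annotated start, chr17:44814578-44814877, minus strand: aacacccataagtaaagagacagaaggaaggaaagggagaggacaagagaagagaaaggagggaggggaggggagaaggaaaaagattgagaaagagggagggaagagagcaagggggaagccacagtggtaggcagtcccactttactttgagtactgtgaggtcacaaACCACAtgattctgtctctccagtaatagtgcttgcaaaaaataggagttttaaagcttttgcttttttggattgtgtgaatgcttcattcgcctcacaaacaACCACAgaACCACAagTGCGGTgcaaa
Runx3 distal start, chr4:135120395-135120694, plus strand: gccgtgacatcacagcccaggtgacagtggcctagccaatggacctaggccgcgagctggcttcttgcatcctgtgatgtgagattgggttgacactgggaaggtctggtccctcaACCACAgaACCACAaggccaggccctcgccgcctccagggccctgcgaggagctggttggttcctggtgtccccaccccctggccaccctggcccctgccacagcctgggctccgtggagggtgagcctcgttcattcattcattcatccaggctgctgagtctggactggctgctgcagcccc
The second annotated start of Runx1, in the region with the highest fold of that gene in each list, holds no such match and is printed for contrast.
Runx1 proximal start, chr16:92697280-92697579, minus strand: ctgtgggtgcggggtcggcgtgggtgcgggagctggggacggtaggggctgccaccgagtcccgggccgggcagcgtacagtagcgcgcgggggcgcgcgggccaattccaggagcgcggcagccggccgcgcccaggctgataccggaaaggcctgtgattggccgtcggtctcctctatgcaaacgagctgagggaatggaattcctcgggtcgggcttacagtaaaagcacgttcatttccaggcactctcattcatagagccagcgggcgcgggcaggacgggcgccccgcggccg

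The longest run common to the 3 most upstream windows was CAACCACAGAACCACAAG, 18 bases with a pair of adjoining RUNX matches. It lay at +27 to +44 from the Runx1 distal start, at +22 to +39 from the Runx2 start and at -136 to -119 from the Runx3 distal start, counting the first transcribed base as +1. Of 32851 promoter windows of 300 bases, 4 held the run. The windows of the 3 members were bound to hold it, because it was chosen from them. The fourth belongs to Gm16225, a long non-coding RNA beside the Runx3 start, and whether it holds a separate copy of the run was not examined. TGTGGT on either strand occurred 2 times in the Runx1 distal window, 3 times in the Runx2 window and 2 times in the Runx3 distal window. At least 1 TGTGGT occurred in 16.8% of all promoter windows, at least 2 in 1.81%, and TGCGGT in 6.45%. Neither the Runx1 nor the Runx3 proximal window held TGTGGT or TGCGGT, and none of the 5 windows held the AP-1 site TGANTCA, which 7.81% of all windows held. These matches describe letters in the windows and do not show binding.

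The distal start of Runx1 was accessible mainly at day 1. The untreated list had no peak in its window, the day 1 list had a peak over the start with a fold enrichment of 28.7, the day 7 list had a peak of fold 4.84 whose summit lay 110 bp from the start, and the day 28 list had none. Fold enrichment is the authors' ratio of reads at the summit to the background of that library, and it ranks regions within a list. The day 1 peak exceeded 85.2% of all day 1 regions in fold, and the day 7 peak exceeded 26.4% of the day 7 regions. The proximal start, 128745 bp downstream, was covered by a peak in every list, with folds of 81.6, 97.1, 94.0 and 137 in the untreated, day 1, day 7 and day 28 lists. It stood above 98.3%, 98.4%, 97.8% and 98.6% of the regions of those lists. The proximal start was thus covered in all 4 lists and the distal one at day 1 alone, the day 7 peak reaching its window without covering the start.

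The annotated start of Runx2 had no untreated peak in its window and was a lasting gain, present at days 1, 7 and 28. No second start of Runx2 was among the promoter windows, so a proximal promoter of that gene was not examined. The start used, chr17:44814627, lies inside the Runx2 span, whose upstream end is at chr17:44814797. The region at chr17:44814456-44815309 had folds of 29.5 at day 1, 11.8 at day 7 and 9.08 at day 28, above 85.6%, 70.3% and 63.6% of the regions of those lists. Reads at the summit numbered 186, 43 and 31. A peak lay over the start itself at days 1 and 28, and at day 7 the peak reached the promoter window without covering the start. Its strongest summits lay 332 bp upstream of the start and inside the span of Supt3, a transcription complex subunit gene that overlaps the 5' end of Runx2 and runs the other way. Those summits were therefore linked to Supt3, and the region reached Runx2 through a second day 28 peak of fold 4.26 whose summit lay inside both spans. Without summits tied between genes, the lasting gains of Runx2 numbered 2.

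At Runx3 the distal window held a peak in the day 1 list, of fold 5.67 with its summit 133 bp from the start, and in none of the others. The proximal start, 31900 bp downstream, was covered at day 1, day 7 and day 28, with folds of 7.56, 9.94 and 7.66. In the untreated list a peak of fold 3.46 lay in the proximal window without reaching the start. Its fold exceeded that of 15% of the untreated regions, and the later peaks exceeded 56.8%, 64.9% and 57.2% of their lists.

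New regions were most numerous at day 1, and at day 28 there were still 20 at Runx1, 9 at Runx2 and 1 at Runx3. A region was called gained when it overlapped no untreated region by at least 1 bp. At day 1, 90 of the 134 family regions were gained (67.2%, exact 95% interval 58.5 to 75.0, counting error only), beside 52.4% of all day 1 regions. At day 7, 64 of 119 were gained (53.8%), beside 36.0% of all day 7 regions. At day 28, 30 of 80 were gained (37.5%, interval 26.9 to 49.0), beside 23.7% of all day 28 regions. Among regions with any protein-coding gene within 50 kb the shares were 49.9%, 33.9% and 23.0%. All 3 comparisons share the same untreated list.

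Runx1 gained the most regions at each time. It had 33 regions in the untreated list, 61 at day 1, 62 at day 7 and 43 at day 28, of which 42, 36 and 20 of the later ones were gained. Runx2 had 23, 50, 34 and 25 regions, with 34, 17 and 9 gained. Runx3 had 20, 23, 23 and 12 regions, with 14, 11 and 1 gained. As shares, the gains at Runx1, Runx2 and Runx3 were 68.9%, 68.0% and 60.9% at day 1. They were 58.1%, 50.0% and 47.8% at day 7. At day 28 the gained share was 46.5% at Runx1 (interval 31.2 to 62.3), 36.0% at Runx2 (18.0 to 57.5) and 8.33% at Runx3 (0.211 to 38.5). These intervals overlap, but they give counting error only, since regions of 1 library are not replicates. The difference between the genes at day 28 was not tested. The single gain of Runx3 at day 28, chr4:135171919-135172064, had a fold of 3.12, against a lowest fold of 2.84 in that list; it was named after its values were seen.

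**Figure D1:**
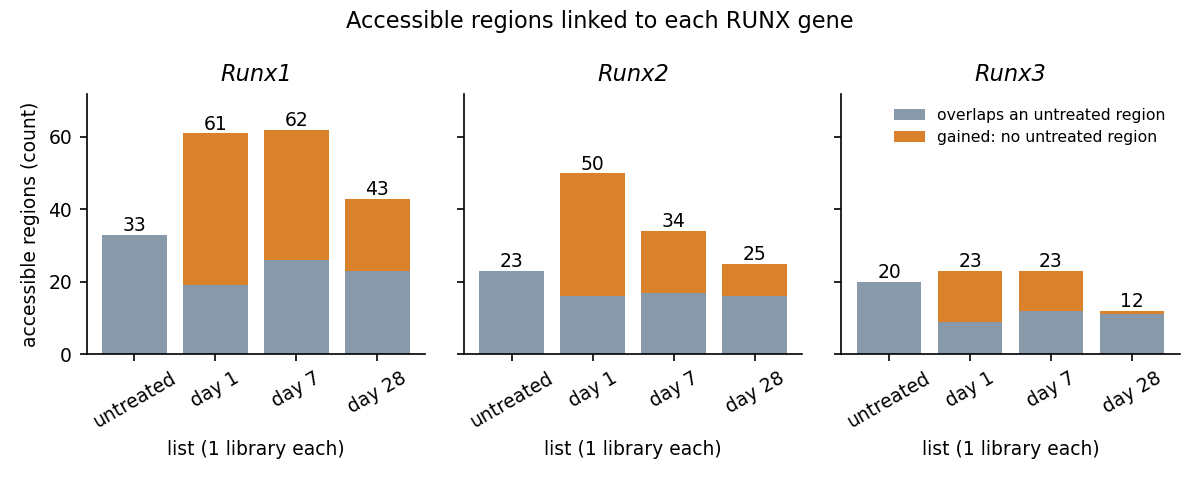
Number of accessible regions (vertical axis) linked to Runx1, Runx2 and Runx3 in each list (horizontal axis, 1 library each). The orange part of each bar counts regions that overlap no untreated region: 42, 36 and 20 at days 1, 7 and 28 at Runx1, 34, 17 and 9 at Runx2 and 14, 11 and 1 at Runx3.

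**Figure D2:**
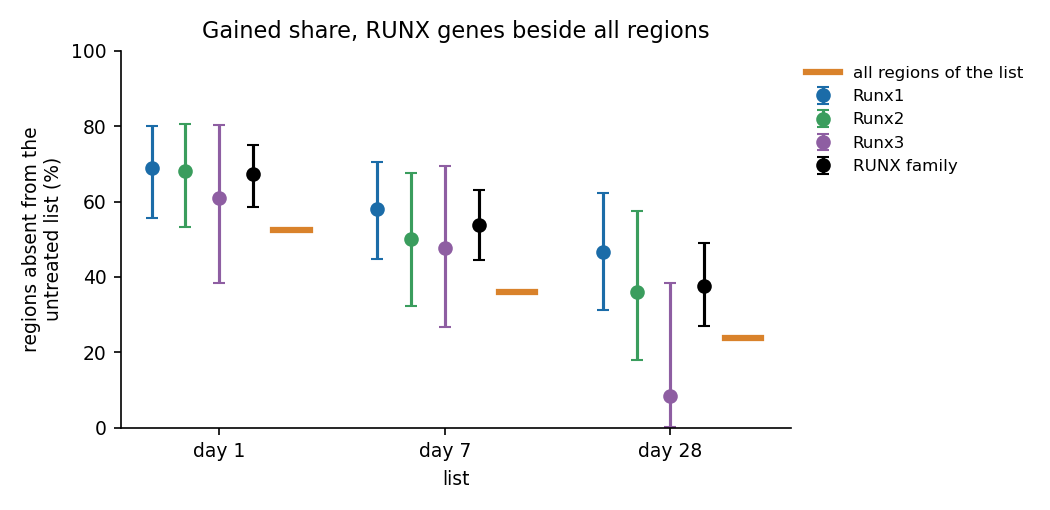
Share of regions absent from the untreated list (percent, vertical axis) at days 1, 7 and 28 for each gene and the family, with exact 95% intervals, and for all regions of the list (orange line). The family point lies above the line at each time, and the Runx3 point is at 8.33% at day 28.

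Untreated regions of the family were missing from the later lists in varying shares. Of the 76 untreated regions, 24 had no day 1 peak (31.6%), 17 no day 7 peak (22.4%) and 23 no day 28 peak (30.3%), beside 37.4%, 32.0% and 27.1% of all untreated regions. Runx3 lost 10, 7 and 10 of its 20 untreated regions at days 1, 7 and 28. Runx1 lost 9, 6 and 7 of 33, and Runx2 lost 5, 4 and 6 of 23. At Runx3 the losses at day 28 therefore outnumbered the gains by 10 to 1, while Runx1 had 7 losses and 20 gains.

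The libraries differed in depth, enrichment and cell type markers, which touches all of these counts. Background pileup, which follows depth, was 5.07, 5.35, 2.72 and 2.52 in the untreated, day 1, day 7 and day 28 libraries, and the lowest fold in the lists was 2.47, 2.36, 2.95 and 2.84. In the regions held by all 4 lists the median of fold minus 1 was 7.40, 16.6, 15.1 and 11.5, lowest in the untreated library. The 8 fibroblast and stellate marker genes had 93, 166, 130 and 102 regions over the untreated, day 1, day 7 and day 28 lists. Among them Lum had 0, 5, 4 and 3, Dcn 4, 23, 9 and 7, and Thy1 5, 13, 12 and 7. Prrx1 had 10, 30, 20 and 12, and Col1a2 14, 35, 21 and 20. The others were Pdgfra with 16, 18, 16 and 13, Col1a1 with 23, 23, 23 and 21, and Pdgfrb with 21, 19, 25 and 19. The 8 leukocyte markers had 15, 28, 18 and 12 regions. Among these, Csf1r, a macrophage receptor gene, had 2, 11, 6 and 2 regions, Ptprc, which encodes the pan-leukocyte antigen CD45, had 4, 10, 4 and 2, and Itgam, a myeloid integrin gene, had 7, 2, 1 and 4. Cd68 had 2, 3, 4 and 2, Cd3e 0, 0, 1 and 2, Lyz2 0, 0, 1 and 0, and Adgre1 0 in each. These fibroblast and leukocyte genes were named after their values were seen. The 4 epithelial markers had 85, 34, 72 and 77 regions, and the 8 acinar markers 120, 30, 71 and 132. Of the 166 fibroblast marker regions at day 1, 109 were gained (65.7%), as were 63 of 130 at day 7 (48.5%) and 32 of 102 at day 28 (31.4%). Of the leukocyte marker regions, 20 of 28 were gained at day 1 (71.4%), 11 of 18 at day 7 (61.1%) and 3 of 12 at day 28 (25.0%). Over all regions the gained shares were 52.4%, 36.0% and 23.7%. At day 1 the gained share was 5.88% at the epithelial markers, 13.3% at the acinar and 27.1% at the duct ones. It was 49.5% at the endothelial and 48.6% at the endocrine markers. Lasting gains were 16 of 174 joined fibroblast marker regions (9.2%) and 0 of 38 leukocyte ones, beside 3.83% of all joined regions. RUNX genes are also used by fibroblasts and leukocytes, and a change in the share of such cells and a change in accessibility per cell cannot be told apart in these bulk libraries. The part of these markers in the RUNX counts was not tested.

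Some gained regions were found again at later times. Of the 42 regions that Runx1 gained at day 1, 26 overlapped a day 7 region and 14 a day 28 region (33.3%, interval 19.6 to 49.5). Of the 34 that Runx2 gained at day 1, 12 overlapped a day 7 region and 2 a day 28 region (5.88%, interval 0.72 to 19.7). Of the 14 at Runx3, 9 and 2 did so. Over the family 47 of 90 (52.2%) and 18 of 90 were found again, beside 37.3% and 14.1% of all regions gained at day 1. Of the 64 family regions gained at day 7, 16 overlapped a day 28 region (25.0%), beside 27.3% of all regions gained at day 7; Runx1 held 13 of these, Runx2 3 and Runx3 0. The difference between the genes was not tested, since regions of 1 library are not replicates.

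Joining overlapping regions of the 4 lists gave each region a history. Of the 165 family regions, 39 were in all 4 lists (23.6%), beside 26.7% of all joined regions. Another 41 were in the day 1 list alone (24.8%), beside 23.0%, and 29 in those of days 1 and 7 alone (17.6%), beside 9.31%. Lasting gains, which had no untreated peak and a peak at each of days 1, 7 and 28, numbered 13 (7.88%, interval 4.26 to 13.1), beside 3.83%. In the untreated list alone stood 16 (9.70%), beside 10.5%. A region gained in 1 list can join an untreated region through another list, so 22 joined regions, and not 30, lacked an untreated peak and had one at day 28.

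The counts of each history were given gene by gene. Runx1 had 17 regions in all 4 lists, 14 in that of day 1 alone, 14 in those of days 1 and 7, 10 lasting gains and 5 untreated-only regions. Runx2 had 14, 22, 10, 3 and 4 in the same order, and Runx3 had 8, 5, 5, 0 and 7. The 10 lasting gains of Runx1 made up 14.1% of its regions. Among the 21631 protein-coding genes 14 had more lasting gains and 5 others had as many, and of 2725 genes with at least 20 joined regions 48 had a higher share. Runx1 was selected on such gains in these same lists, so its place is a description and not a test. In joined regions of any history, 212 genes had more than Runx1.

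The 10 lasting gains of Runx1 lay within and downstream of the gene, which spans chr16:92601466-92826074 on the minus strand. Between the distal and proximal starts stood 5 of them, between the proximal start and the 3' end 4, and beyond the 3' end 1. Upstream of the distal start 8 regions were absent from the untreated list, and 0 of them were lasting gains; 4 were in the day 1 list alone and 3 in those of days 1 and 7. Whether a region lies in an exon or an intron was not determined, because the annotation used gives gene spans and starts only. One lasting gain, chr16:92762009-92762618, overlapped the long non-coding RNA gene Gm30281, which lies inside the Runx1 span.

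The lasting gain of Runx1 with the highest fold at day 28, chr16:92623557-92624981, had folds of 35.6, 13.2 and 6.53 at days 1, 7 and 28, with 225, 48 and 22 reads at the summit. It lay 73069 bp downstream of the proximal start. The region at chr16:92602617-92603200, near the 3' end, had folds of 33.7, 18.8 and 5.96. Another, chr16:92674076-92674522, had folds of 5.36, 10.5 and 5.68, and lay 22964 bp downstream of the proximal start. Between the starts, chr16:92710137-92710704 had folds of 19.1, 7.79 and 4.83 and chr16:92788316-92789264 had folds of 30.7, 5.91 and 4.83. At day 1 the folds of 4 of these 5 regions lay between 19.1 and 35.6, and that of the other, chr16:92674076-92674522, was 5.36.

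The other 5 lasting gains of Runx1 were chr16:92577443-92577794, chr16:92675693-92675947, chr16:92762009-92762618, chr16:92770975-92771373 and chr16:92785931-92786321. Their folds ran from 3.78 to 7.25 at day 1, from 4.57 to 9.67 at day 7 and from 3.12 to 4.54 at day 28. The weakest, chr16:92675693-92675947, rested on 10 reads at its day 28 summit, a count under the lowest pileup of 14 in the untreated list. Of the 13 lasting gains of the family, 9 had a day 28 pileup of at least 14.

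**Figure D3:**
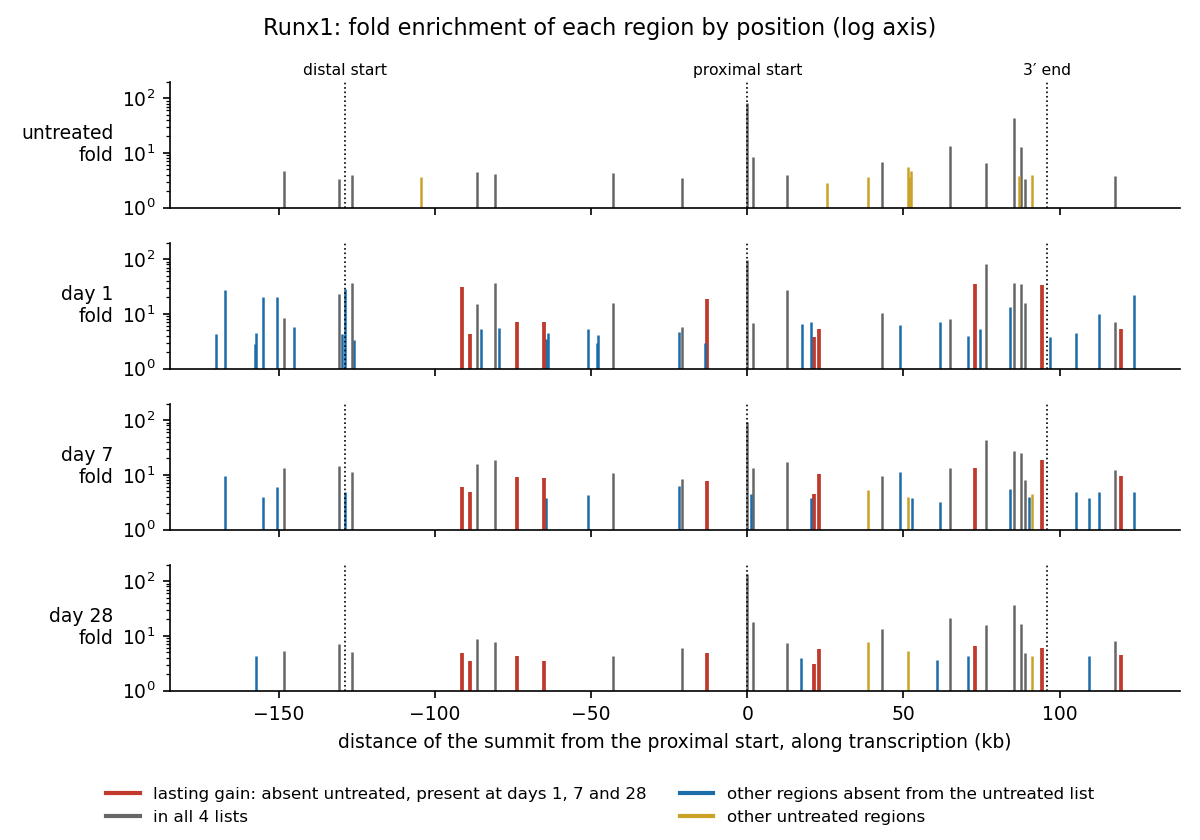
Position of each Runx1 region as the distance of its summit from the proximal start along transcription (kb, horizontal axis) and the authors' fold enrichment (vertical log axis) in the untreated, day 1, day 7 and day 28 lists, from top to bottom. Red lines are the 10 lasting gains, which have no line in the untreated row, and the peak at the distal start has a fold of 28.7 at day 1 and no line at day 28.

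Runx2, which spans chr17:44495987-44814797 on the minus strand, had 3 lasting gains. The first is the region at its start. The second, chr17:44767354-44767907, lay 47028 bp downstream of the start and had folds of 13.7, 10.2 and 8.52 at days 1, 7 and 28, with 86, 37 and 29 reads at the summit. The last, chr17:44546383-44547268, lay 267665 bp downstream and had folds of 34.5, 17.2 and 3.41, with 218, 63 and 11 reads. The first and the second had the highest day 28 folds of all 13 lasting gains of the family, 9.08 and 8.52, beside a range of 3.12 to 6.53 at Runx1. The peak of fold 9.08 was linked to Supt3 alone, and the day 28 peak of that region linked to Runx2 had a fold of 4.26.

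Most Runx2 regions that were new at day 1 were in no later list, and the same held for most new regions of any gene or none. Of 35 joined Runx2 regions with a day 1 peak but no untreated one, 22 had no later peak. Over all joined regions this was 51456 of 82977. The 22 Runx2 regions in the day 1 list alone included chr17:44768494-44768875 with a fold of 16.1, chr17:44600408-44601393 with 11.8 and chr17:44599678-44600363 with 11.5. The strongest Runx2 region at day 1 was one of the 14 that all lists held: chr17:44499990-44501270, close to the 3' end, with a fold of 115 that 1233 day 1 regions exceeded, named here after its values were seen. In the untreated, day 7 and day 28 lists the highest fold at Runx2 belonged to chr17:44776656-44778006, with 46.6, 83.0 and 84.6; this region, also named after its values were seen, covers the 5' end of the Supt3 span.

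Runx3, which spans chr4:135120645-135177990 on the plus strand, had no lasting gain. Its strongest region in the untreated and day 28 lists was chr4:135140296-135141065, between its starts, with folds of 12.5 and 13.6, and it was named after its values were seen. All 8 joined regions between the 2 Runx3 starts had an untreated peak, against 7 of 23 between the starts of Runx1 and 52.3% of all joined regions. Runx1 was selected on regions gained in these same lists, so this difference is a description and not a test. The regions in the day 1 list alone with the highest folds were that at the distal start and chr4:135159131-135159357, with a fold of 5.20. The 7 regions in the untreated list alone had folds of 2.97 to 4.28, among them chr4:135126988-135127228 with 4.28, chr4:135082943-135083199 with 3.95 and chr4:135174685-135174839 with 3.95.

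**Figure D4:**
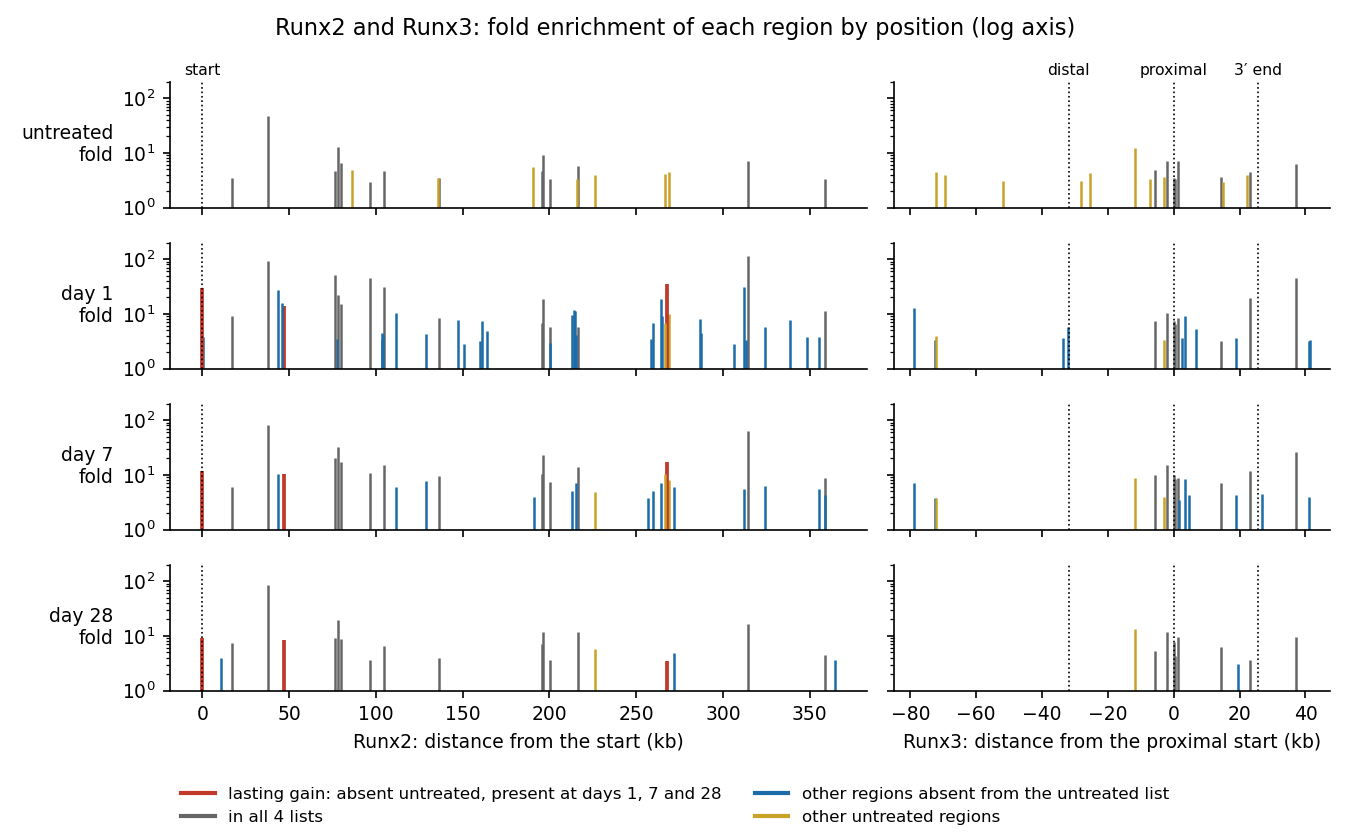
Regions of Runx2 (left, distance from its start in kb) and Runx3 (right, distance from its proximal start in kb) by the authors' fold enrichment (vertical log axis) in the untreated, day 1, day 7 and day 28 lists, from top to bottom. Runx2 has 3 lasting gains in red, 1 of them at its start, and Runx3 has 0.

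Regions in a single list were mostly weak at Runx1. The highest folds among its day-1-only regions were 6.62 at chr16:92679659-92679993, 5.67 at chr16:92842228-92842489 and 5.51 at chr16:92776579-92776872. Among the untreated-only regions the highest were chr16:92644696-92645232 with 4.78 and chr16:92610177-92610339 with 3.79 at Runx1, and chr17:44623796-44624030 with 5.44, chr17:44728477-44728670 with 4.94 and chr17:44678990-44679139 with 3.46 at Runx2. The untreated-only regions of the family had folds of 2.80 to 5.44, beside a median of 4.12 over all untreated family regions.

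Set beside regions of the same history within each list, the lasting gains of the family had a median fold of 13.7 at day 1, 9.67 at day 7 and 4.83 at day 28, against 7.72, 6.72 and 4.54 for all 8586 lasting gains. The 39 family regions in all 4 lists had medians of 4.61, 15.3, 13.4 and 7.66 over the untreated, day 1, day 7 and day 28 lists, against 8.40, 17.6, 16.1 and 12.5 for all regions of that history. The family's median was thus lower than that of all constant regions in each list. For lasting gains it was higher at days 1, 7 and 28 than that of all such gains. By gene the lasting gains had medians of 7.17, 9.0 and 4.69 at Runx1 (10 regions) and 29.5, 11.8 and 8.52 at Runx2 (3 regions). The Runx2 medians of 29.5 and 11.8 are the folds of the region at its start, whose peaks at days 1 and 7 were linked to Supt3 alone. At day 1 the Runx1 median lay below the 7.72 of all lasting gains. Single regions also departed from the family's medians, such as the Runx1 proximal start, whose folds are given above, and the lasting gain with a day 28 fold of 3.12.

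**Figure D5:**
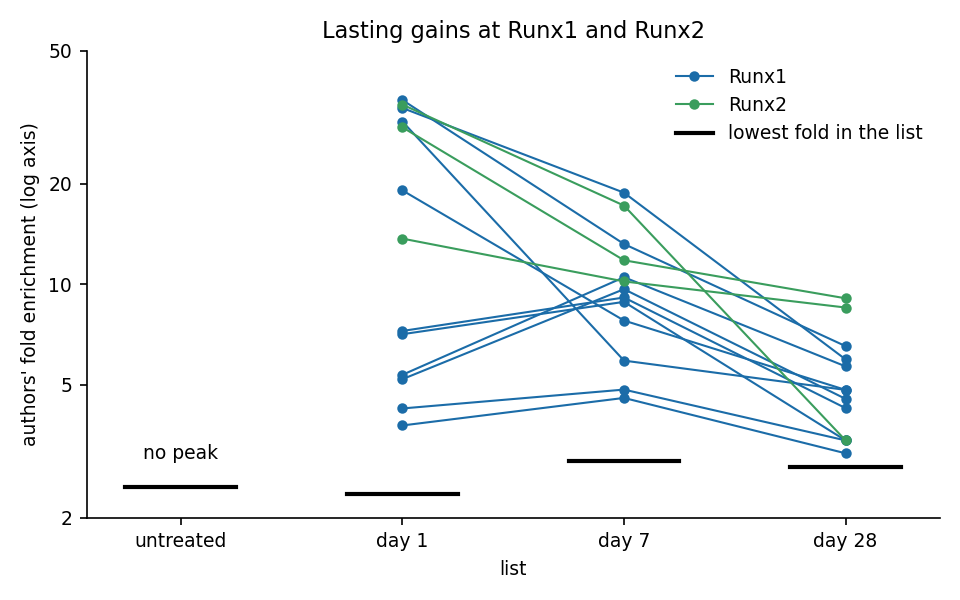
Authors' fold enrichment (vertical log axis) of the 13 lasting gains at Runx1 (blue) and Runx2 (green) in the day 1, day 7 and day 28 lists (horizontal axis); lines join the same region, and black bars mark the lowest fold in each list. The day 28 folds lie between 3.12 and 9.08, and libraries differ in depth and enrichment, so that the slope of a line is not a measured change.

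The genes whose regions were spread over the 15 possible histories most like those of each member were found by the share of regions that would have to change history to make both spreads equal, from 0 to 1, among 2724 genes with at least 20 joined regions. For Runx1 these were Washc3 at 0.137, Acvr1, a BMP receptor gene, at 0.146 and Pitpnm3 at 0.146, against a median of 0.362. For Runx2 they were Notch2, a Notch receptor gene, at 0.084, Dgki, a diacylglycerol kinase gene, at 0.085 and Zfp462 at 0.096. For Runx3 they were Cacna1i, a calcium channel gene, at 0.125, Zfhx3, a homeobox transcription factor gene, at 0.125 and Cldn14, a tight junction gene, at 0.128. Runx2 stood at 0.20 and Runx3 at 0.28 from Runx1, at ranks 64 and 444.

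Genes that act with RUNX proteins, or are controlled by them, were counted in the same way. Beside their gains stand 52.4%, 36.0% and 23.7% of all regions at days 1, 7 and 28, beside their losses 37.4%, 32.0% and 27.1% of all untreated regions, and beside their lasting gains 3.83% of all joined regions. The 17 partner and cofactor genes gained 121 of 288 regions at day 1 (42.0%), 91 of 292 at day 7 (31.2%) and 95 of 320 at day 28 (29.7%), below the share of all regions at days 1 and 7 and above it at day 28. They lost 39.1%, 34.1% and 21.5% of their 302 untreated regions. Hipk2, a kinase, gained 21 of 46 regions at day 28. The co-repressor genes Ski and Tle3 gained 13 of 44 and 12 of 40, and the histone deacetylase gene Hdac4 gained 9 of 42. Lasting gains made up 17 of their 434 joined regions (3.92%), with 5 at Hdac4 and 3 each at Ski and Tle3. Cbfb, named after its values were seen, had 6 untreated regions and gained 4 of 7 at day 1, 1 of 4 at day 7 and 1 of 5 at day 28, with 1 lasting gain.

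The 16 partner transcription factor genes gained 159 of 378 regions at day 1 (42.1%), 87 of 340 at day 7 (25.6%) and 80 of 349 at day 28 (22.9%). These shares lay below that of all regions at days 1 and 7 and little below it at day 28. The same genes lost 34.1%, 29.4% and 25.0% of 384 untreated regions. The most at day 28 were 16 of 68 at Tead1, the DNA-binding partner of YAP, and 15 of 82 at Smad3, which carries TGF-beta signals. Next were 11 of 39 at Ets1 and 9 of 35 at the AP-1 gene Fos. Ets1 had 4 of their 17 lasting gains. The 11 genes that control RUNX activity or level gained 110 of 198 regions at day 1 (55.6%), 72 of 163 at day 7 (44.2%) and 38 of 129 at day 28 (29.5%). Their shares lay little above that of all regions at day 1 and above it at days 7 and 28. These regulators lost 26.5%, 28.7% and 34.6% of 136 untreated regions. The TGF-beta ligand gene Tgfb2 gained 7 of 18 regions at day 28 and the ubiquitin ligase gene Smurf1 gained 7 of 21. Each of these genes had 4 lasting gains. The kinase genes Pim1 and Cdk6 gained 6 of 18 and 6 of 14 at day 28. Lasting gains made up 16 of 251 joined regions of these regulators (6.37%).

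Known targets of the RUNX factors made up 3 further lists. The 12 skeletal target genes of Runx2 gained 45 of 98 regions at day 1 (45.9%), 33 of 102 at day 7 (32.4%) and 26 of 116 at day 28 (22.4%). These shares lay below that of all regions at day 1 and little below it at days 7 and 28. The same genes lost 47.1%, 39.5% and 25.2% of 119 untreated regions. Vegfa, an angiogenic factor gene, gained 9 of 43 at day 28 and the osteopontin gene Spp1 gained 6 of 12. The collagen gene Col1a1, also a fibroblast marker here, gained 4 of 21. Col1a1 had 3 and Spp1 2 of the list's 7 lasting gains. The 14 blood and neuronal target genes of Runx1 and Runx3 gained 41 of 78 regions at day 1 (52.6%), 25 of 74 at day 7 (33.8%) and 17 of 72 at day 28 (23.6%). They lost 47.9%, 41.1% and 32.9% of 73 untreated regions. At day 28 the neurotrophin receptor gene Ntrk3, which also had the list's 1 lasting gain, gained 7 of 18. Gfi1b, a blood transcription factor gene, gained 3 of 12. The 10 epithelial target genes gained 49 of 107 regions at day 1 (45.8%), 39 of 115 at day 7 (33.9%) and 29 of 103 at day 28 (28.2%), and lost 25.0%, 17.0% and 15.9% of 88 untreated regions. Of these genes, Ccn1, a matricellular protein gene, gained 9 of 23 at day 28 and the stem cell marker gene Lgr5 gained 5 of 10. The cytokine signalling inhibitor gene Socs3 gained 5 of 24 and the cell cycle inhibitor gene Cdkn1a gained 4 of 12. Lasting gains of this list numbered 4, 1 each at Ccn1, Ccn2, Cdkn1a and Lgr5. The members' own lasting share of 7.88% stands beside 3.92%, 3.46%, 6.37%, 4.46%, 0.826% and 3.2% in the lists of cofactors, partner factors, regulators and skeletal, blood and epithelial targets, beside 9.2% at the fibroblast markers and beside 3.83% of all joined regions.

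Regions on either side of the 50 kb limit were as follows. At Runx1 the farthest linked region at day 1 lay 41369 bp outside the span with a fold of 4.25, and the nearest beyond the limit lay 51000 bp away with a fold of 27.1, nearer to Clic6. At Runx3 the farthest linked region at day 1 lay 46945 bp outside with a fold of 13.1, and the nearest beyond lay 52903 bp away with a fold of 3.94, nearer to Clic4. With a limit of 100 kb the lasting gains of the family numbered 15, of which 12 at Runx1, and with summits inside a gene span alone 12, of which 9 at Runx1.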

How the data were processed

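Peak lists of 4 libraries in the narrowPeak layout were used, with groups taken from sample titles. Tools listed in the submitters' processing notes are MACS2 2.1.0.20150731, Bowtie2 2.2.6, SAMtools, deepTools and cutadapt, with the build GRCm38 (mm10). What each did, with which options and filters, is not given in the sources used here, so the effect of read shifting or duplicates on the peaks is unknown. The deposited score equals 10 times the deposited -log10 q in 100% of rows, the deposited -log10 p and -log10 q measure enrichment at the summit, and the authors' fold is a ratio of pileup to background. Solving the fold and -log10 p for 1 background per list gave whole pileups within 0.05 for 100% of peaks, the only depth the files show; read totals were not used here.

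Peaks on the 19 autosomes and X were linked by summit to the nearest RefSeq protein-coding span (GRCm38.p6) within 50 kb, with ties kept. Overlap needed at least 1 bp. Joined regions are unions of overlapping peaks. Intervals are exact Clopper-Pearson 95%. Overlap, joining and linking were tested on simulated lists (Python 3.11.15, numpy 2.4.6, pandas 2.3.3, scipy 1.17.1).

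The members, the 6 pathway lists and the 7 marker lists were chosen with earlier results of these data known; 3 genes stand in more than 1 list. Regions named were all lasting gains, those at annotated starts, and up to 3 per gene of the day-1-only and untreated-only regions with the highest fold; 4 other regions are marked in the text as named after their values were seen. Genes named were up to 4 per list with the most day 28 gains, up to 2 with the most lasting gains (ties added), and the 3 most alike genes per member; Cbfb and markers of other cells were named after their values were seen. The values of 1 leukocyte marker are not reported here. Alternatives changed the overlap, the q threshold, the enrichment floor and the gene link.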

Additional observations from a re-analysis of the deposited data

How the results depend on the processing

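Each of the 7 counts of gained, lost and lasting family regions was recomputed under 8 alternatives, and 52 of 56 values stayed within 1.5 times the reported one. When lists were held to a common enrichment floor, gains at day 1 numbered 55 of 96 (57.3%, beside 42.1% of all regions). When a peak needed a -log10 q of at least 5 and absence meant no peak at any q, gains at day 28 numbered 18 of 61 (29.5%, beside 15.7%), and untreated regions lost at days 7 and 28 numbered 10 and 15 of 61. Lasting gains ranged from 9 to 15 over the 8 alternatives, with 7 to 12 at Runx1 and 2 to 3 at Runx2. Runx3 had 0 lasting gains in 7 of the 8 and 1 with a -log10 q of at least 5 in all lists; its single day 28 gain became 0 to 3. The family's gained and lasting shares exceeded those of all regions, and its losses at days 1 and 7 fell below them, under all 8. Its losses at day 28 lay above those of all regions under all 8. By gene the lasting share was 14.1% at Runx1 and 4.84% at Runx2, beside 3.83% of all joined regions. With tied summits dropped that of Runx2 was 3.45%, below all regions. The members were selected on gains in these same lists, so these shares are a description and not a test. With 1 library per group no replicate could be left out. No paired analysis was possible because each group had 1 library. At day 28, 4 of the 13 lasting gains had fewer than 14 reads at the summit, the lowest number in the untreated list; backgrounds were 2.52 at day 28 and 5.07 untreated, and the part of depth was not tested.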
